A study of Homo sapiens with 2 samples.

Results

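The genes described here are 49 components of the machinery with which cells import, glycosylate, fold and discard proteins in the endoplasmic reticulum (ER). They were taken by gene symbol, and a gene was represented by the probe set with this symbol alone that had the highest mean signal intensity. On the array, 45 of the 49 genes had such a probe set, of 11963 genes in all. Signal intensities came from L-428, an established cell line from Hodgkin's lymphoma (HL), on 2 Affymetrix HG_133A microarrays. For 1 array the cells were transfected with pcDNA6.2-GW/EmGFP-miR-DUSP5, which expresses an artificial microRNA against DUSP5 together with a green fluorescent protein. For the other they were transfected with pcDNA6.2-GW/EmGFP-miR-neg, which the paper calls empty. DUSP5 is a nuclear phosphatase that inactivates the kinase ERK. The question put to the arrays was how knock-down of DUSP5 altered gene expression, and here it is asked of the ER genes.

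Proteins bound for secretion or for membranes enter the ER through the SEC61 channel, lose their signal peptide and receive N-glycans from the oligosaccharyltransferase. Chaperones of the Hsp70 and Hsp90 families, lectins that read the glycan, and enzymes that form disulfide bonds then fold them, while molecules that fail are passed back to the cytosol and degraded. When unfolded proteins build up, the sensors IRE1 (gene ERN1), ATF6 and PERK start the unfolded protein response, in which ATF6 and spliced XBP1 raise the transcription of many of these genes, and which is of most weight in secretory cells such as plasma cells.

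The differences have no replicate check, because each condition had 1 array, and no p-value was computed. In place of a replicate error, each log2 ratio (knock-down over control) is given with an SD for the ratio of a single probe set. This SD was estimated from how far apart the ratios of a gene's several probe sets lay at a similar signal. It was 0.41 at mean signals of 200 to 500, 0.36 up to 1000, 0.30 up to 3000 and 0.26 above. It leaves out any difference between separate cultures, transfections or arrays. A ratio larger than this error is therefore no proof of a difference between the conditions. Genes whose signals averaged at least 200 were treated as measured, and a gene is called higher or lower here when its signals differed by at least 1.5-fold. The DUSP5 probe set gave 368 after knock-down and 628 in control cells, a log2 ratio of -0.77 ± 0.41. Of 12 HL markers with a probe set 11 were measured, with summed signals of 48698 after knock-down and 38023 in control cells. They did not go one way: TNFRSF8 (1.07) and CCL17 (0.99) were called higher, and FUT4 (-1.25) and ID2 (-0.61) lower. Of the B cell markers 1 of 7 was measured (PAX5; sums 762 after knock-down and 723 in control cells), and of the plasma cell markers 3 of 7 (sums 1188 after knock-down and 866 in control cells). Of these, SDC1 passed the minimum only through the knock-down array, with 273 after knock-down and 154 in control cells. None of 8 T cell markers and none of 8 monocyte markers was measured, with sums of 665 and 479 after knock-down and of 427.9 and 285.5 in control cells. The part of other cells or cell states in the ER values was not tested. In such bulk RNA, fewer cells that express a gene and less RNA per cell cannot be told apart.

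Of the 45 ER genes with a probe set, 42 were measured. At least 1.5-fold higher after knock-down were 7 of them, and 15.6% of all 6301 measured genes were higher. At least 1.5-fold lower were 6, and 19.0% of all measured genes were lower. With 16.7% and 14.3% of the ER genes, these shares lay near the background and are no result about the machinery as a whole. The median log2 ratio was 0.10 over the 42 genes, with 24 above 0 and 18 below, and 0.01 over all measured genes. The range ran from -1.45 for SEL1L to 1.46 for MANF. Within the machinery the medians of the roles lay apart. The 15 measured folding genes had a median of 0.33, with 12 above 0, 4 called higher and 1 called lower. The 6 degradation genes had a median of -0.52, with 5 below 0, 2 called lower and none called higher. The 17 genes for translocation and N-glycosylation had a median of 0.11, with 3 called higher and 2 called lower. No test of these differences can be had from 1 array per condition. Relative to the hybridisation controls, the array's probe sets for bioB, bioC, bioD and cre, every ratio lay 0.30 lower and the median of all measured genes was -0.29. On that scale 5 ER genes were called higher and 12 lower, of 388 higher and 2051 lower genes in all, and the medians were 0.03 for folding, -0.83 for degradation and -0.19 for translocation and glycosylation. Genes with high signals lay above 0 as a class: the median of all 667 measured genes with mean signals above 3000 was 0.21, and that of the 15 ER genes among them was 0.19. After a lowess fit on signal was subtracted, the medians were 0.22 for folding, -0.61 for degradation and 0.04 for translocation and glycosylation.

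**Figure D1:**
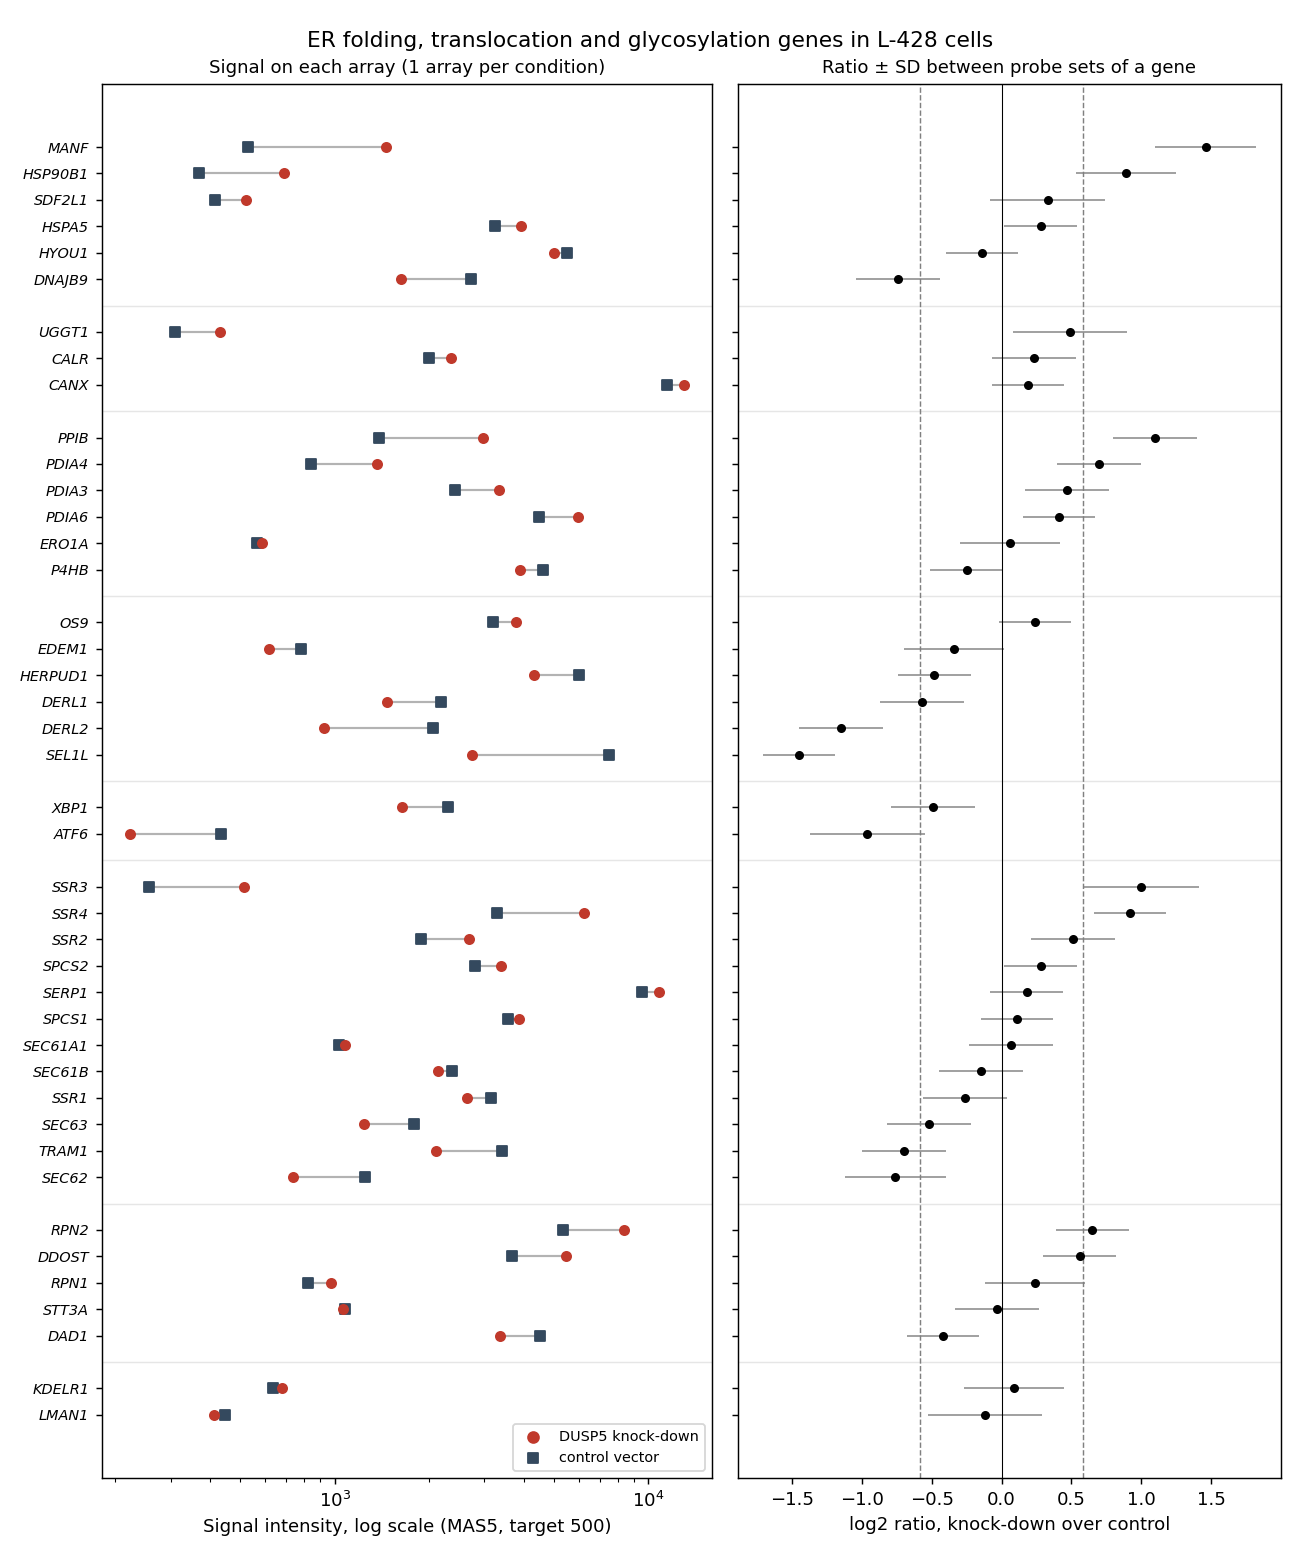
Signal intensity on each array (left, log axis, circles for DUSP5 knock-down and squares for the control vector) and log2 ratio with the SD between probe sets (right, dashed lines at 1.5-fold) of the 42 measured ER genes, in blocks by role. The circle lies right of the square in MANF, PPIB, SSR3 and SSR4, and left of it in SEL1L, DERL2 and ATF6.

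**Figure D2:**
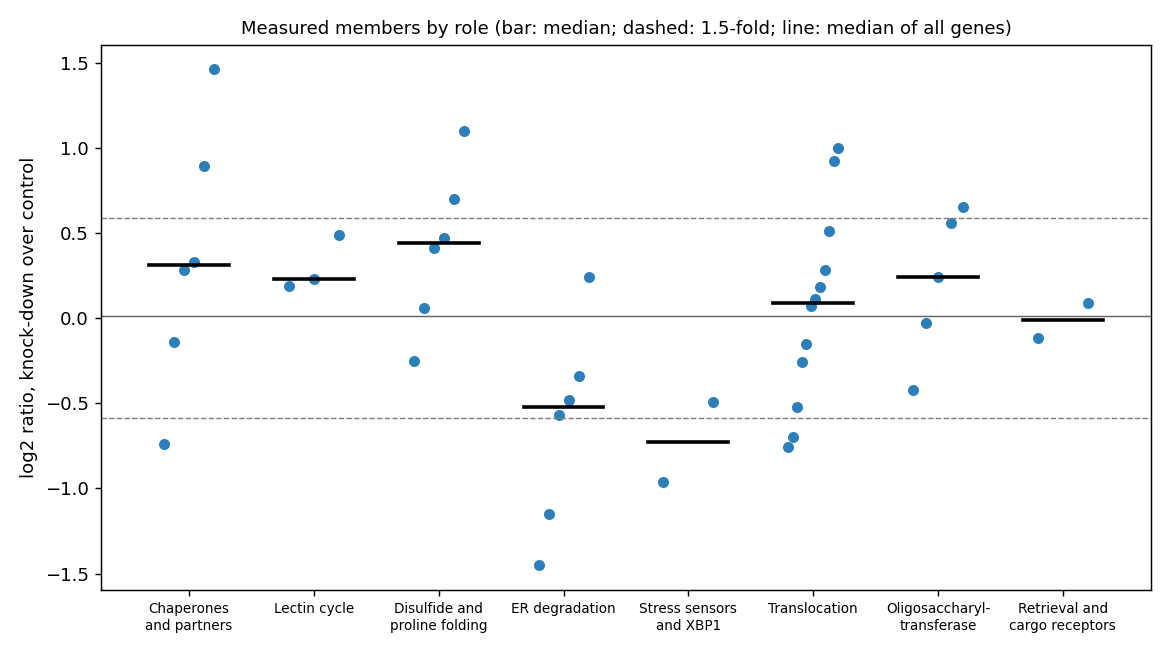
Log2 ratio of knock-down over control for the measured ER genes by role, 1 point per gene, with the median of each role as a bar, 1.5-fold as dashed lines and the median of all measured genes as a thin line. The degradation genes (median -0.52) lie below the folding roles (medians 0.31, 0.23 and 0.44), with 1 degradation gene above 0.

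The promoters are shown because some of them hold the elements through which ATF6 and XBP1 are known to act. Windows from 250 bases before to 50 bases after the start (RefSeq, GRCh38.p14) were matched for 43 of the 49 genes, and not for SPCS1, RPN1, PDIA3, TRAM1, DERL1 and KDELR2. The ER stress response element (ERSE) was searched as CCAAT, 9 bases and CCACG, on both strands. It was present in the windows of 7 ER genes, 16.3% of those with a window, and in those of 0.0916% of all 27305 genes with a window and 0.187% of the measured ones. The list was made of genes many of which ATF6 and XBP1 are known to raise, so that a larger share was to be had in advance. All genes include the ER genes, and the shares are a description. All 8 sites lay before the start. Each is printed 5′ to 3′ on the strand of the motif with 5 bases on either side and with CCAAT and CCACG in capitals.
HSPA5, chr9:125241391-125241409, minus-strand gene, motif on the gene's strand: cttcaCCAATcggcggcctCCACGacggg
HSP90B1, chr12:103930216-103930234, plus-strand gene, motif on the gene's strand: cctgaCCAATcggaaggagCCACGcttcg
HSP90B1, chr12:103930321-103930339, motif on the opposite strand: acccaCCAATcgcgccgcaCCACGcaccc
CALR, chr19:12938384-12938402, plus-strand gene, motif on the opposite strand: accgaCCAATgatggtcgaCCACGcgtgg
CANX, chr5:179698778-179698796, plus-strand gene, motif on the gene's strand: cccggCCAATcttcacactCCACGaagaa
PDIA6, chr2:10812853-10812871, minus-strand gene, motif on the gene's strand: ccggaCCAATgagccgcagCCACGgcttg
SERP1, chr3:150546710-150546728, minus-strand gene, motif on the opposite strand: aaacaCCAATtcgctgtctCCACGcatga
XBP1, chr22:28800603-28800621, minus-strand gene, motif on the gene's strand: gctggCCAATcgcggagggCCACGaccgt

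The nearest of these sites to a start was that of XBP1, with 33 bases in between, and the farthest was that of SERP1, with 213. All 7 genes were measured. Their median log2 ratio was 0.23, from -0.49 for XBP1 to 0.89 for HSP90B1, and 1 of them was called higher and none lower. The 30 other measured ER genes with a window had a median of 0.02, with 6 called higher and 5 called lower. Of all measured genes 15.6% were higher and 19.0% lower, so that these counts are no result about the element. The call of HSP90B1 was lost with the mean of its probe sets (0.40). Apart from HSP90B1 the 7 genes with an ERSE stayed within 1.5-fold as deposited. The signs of some depended on the scaling. CANX and SERP1 were below 0 after the lowess fit, and HSPA5, CALR, CANX and SERP1 relative to the hybridisation controls. On these scales XBP1 stayed below 0 (-0.79 relative to the hybridisation controls), and HSP90B1 and PDIA6 stayed above 0.

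A second element, ERSE-II, was searched as ATTGG, 1 base and CCACG, and the XBP1 element (UPRE) as TGACGTGG. ERSE-II was found in 3 of the 43 genes (6.98%, against 0.0696% of all genes with a window and 0.206% of the measured ones), and the UPRE in 5 of them (11.6%, against 0.927% and 1.44%). As for the ERSE, these shares are a description of a list chosen with such targets in it. Both elements are printed with the motif in capitals and 5 bases on either side. The first ERSE-II of HYOU1 overlaps its UPRE on the other strand.
HYOU1, ERSE-II, chr11:119057380-119057390, minus-strand gene, opposite strand: ctgggATTGGaCCACGtcacg
HYOU1, ERSE-II, chr11:119057274-119057284, opposite strand: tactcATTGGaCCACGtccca
HERPUD1, ERSE-II, chr16:56932025-56932035, plus-strand gene, gene's strand: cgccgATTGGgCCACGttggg
SDF2L1, ERSE-II, chr22:21642114-21642124, plus-strand gene, opposite strand: ttttgATTGGtCCACGcttcc
HYOU1, UPRE, chr11:119057386-119057393, gene's strand: ccccgTGACGTGGtccaa
SSR3, UPRE, chr3:156554159-156554166, minus-strand gene, opposite strand: cttgcTGACGTGGctgtt
SSR4, UPRE, chrX:153794539-153794546, plus-strand gene, opposite strand: agcacTGACGTGGcccct
SEC62, UPRE, chr3:169966790-169966797, plus-strand gene, opposite strand: ccctcTGACGTGGagcga
KDELR3, UPRE, chr22:38468050-38468057, plus-strand gene, opposite strand: ggcggTGACGTGGccagg

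The 3 genes with ERSE-II had log2 ratios from -0.48 to 0.33 and none was called. Of the 4 measured genes with a UPRE, SSR3 and SSR4 were called higher and SEC62 lower, so that this element stood before genes at either end. Of all measured genes 15.6% were higher and 19.0% lower, and the call of SEC62 was lost with the mean of its probe sets (-0.49). A match is a description of the letters and not proof of a bound site.

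To show the 3 genes around which the values turn, the 250 bases before the start are given for HSPA5, the classical target of the unfolded protein response, and for MANF and SEL1L, which had the highest and the lowest ratio. Every CCAAT and CCACG of either strand is in capitals.
HSPA5, chr9:125241344-125241593, minus strand: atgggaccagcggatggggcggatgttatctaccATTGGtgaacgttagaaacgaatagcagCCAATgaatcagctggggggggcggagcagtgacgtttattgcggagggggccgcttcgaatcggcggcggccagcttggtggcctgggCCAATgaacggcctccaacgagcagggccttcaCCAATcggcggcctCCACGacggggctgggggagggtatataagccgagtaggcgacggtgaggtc
MANF, chr3:51385041-51385290, plus strand: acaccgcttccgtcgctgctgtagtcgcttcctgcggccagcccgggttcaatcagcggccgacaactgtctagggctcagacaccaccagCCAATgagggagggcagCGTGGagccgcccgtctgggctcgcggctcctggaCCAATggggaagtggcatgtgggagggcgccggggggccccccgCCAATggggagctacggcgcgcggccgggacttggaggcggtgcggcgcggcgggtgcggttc
SEL1L, chr14:81533854-81534103, minus strand: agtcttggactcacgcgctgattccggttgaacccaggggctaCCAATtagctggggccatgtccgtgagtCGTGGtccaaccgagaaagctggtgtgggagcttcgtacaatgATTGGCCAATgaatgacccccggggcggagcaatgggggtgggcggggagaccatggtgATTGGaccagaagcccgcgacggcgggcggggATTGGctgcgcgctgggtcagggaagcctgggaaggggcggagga

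These windows held 4 CCAAT elements for HSPA5, 3 for MANF and 5 for SEL1L, and 1 CCACG each. Only in HSPA5, of these 3 windows, did a CCAAT and the CCACG stand at the ERSE spacing.

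Chaperones of the ER lumen and their partners had a median log2 ratio of 0.31 over 6 measured genes. MANF, a small secreted protein that binds BiP, gave signals of 1456 after knock-down and 531 in control cells. This 2.74-fold difference, a log2 ratio of 1.46 ± 0.36, placed MANF 66th from the top among 6301 genes. HSP90B1, the Hsp90 of the ER (GRP94), gave 688 after knock-down and 370 in control cells, a log2 ratio of 0.89 ± 0.36. Its other probe set gave 399 after knock-down and 427 in control cells (-0.10 ± 0.41), and both are of the type _x_at, whose probes can also match other transcripts. With the mean of both probe sets the ratio was 0.40, so that the call of HSP90B1 rested on the choice of probe set. The array has 2 further HSP90B1 probe sets, which share their annotation with a microRNA gene and were left out by the rule on symbols. SDF2L1, a partner of the Hsp40 co-chaperones, gave 523 after knock-down and 414 in control cells (0.33 ± 0.41), which is within the error.

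HSPA5, which encodes BiP, the Hsp70 of the ER and the gene most used to read the unfolded protein response, differed little. It gave 3931 after knock-down and 3234 in control cells, a 1.22-fold difference with a log2 ratio of 0.28 ± 0.26. HYOU1, the large Hsp70-like exchange factor of BiP, gave 4992 after knock-down and 5484 in control cells (-0.14 ± 0.26). DNAJB9, an Hsp40 co-chaperone (ERdj4) that restrains IRE1, was lower, with 1626 after knock-down and 2720 in control cells (-0.74 ± 0.30). Its other probe set, at a mean signal of 195, went the same way (-0.45). Relative to the hybridisation controls HSPA5 was at -0.02 and DNAJB9 at -1.04. DNAJC3, a co-chaperone also known as p58IPK, was below the signal minimum, with 12.8 after knock-down and 35.6 in control cells. DNAJB11 had no probe set with this symbol alone.

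The lectin cycle retains glycoproteins until they are folded, and its 3 genes were all measured and all above 0 as deposited (CALR and CANX below 0 relative to the hybridisation controls) without reaching 1.5-fold. UGGT1, the glucosyltransferase that marks unfolded glycoproteins, gave 433 after knock-down and 309 in control cells (0.49 ± 0.41). CALR, the soluble lectin calreticulin, gave 2341 after knock-down and 2003 in control cells (0.23 ± 0.30). The other 2 probe sets of CALR had ratios of 0.47 and 1.05, and the mean over its probe sets was 0.58. CANX, the membrane lectin calnexin, gave 13029 after knock-down and 11435 in control cells (0.19 ± 0.26). The other 2 probe sets of CANX gave -0.16 and 0.30, and its ratio was -0.20 after the lowess fit, -0.18 after quantile normalization and -0.11 relative to the hybridisation controls. No direction can be given for CANX.

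Enzymes for disulfide bonds and proline isomers had a median of 0.44 over 6 measured genes, and of 0.31 after the lowess fit. PPIB, the ER cyclophilin B, which isomerises proline bonds, gave 2971 after knock-down and 1383 in control cells. The log2 ratio was 1.10 ± 0.30, a 2.15-fold difference, and the other probe set of PPIB gave 2191 after knock-down and 1198 in control cells (0.87 ± 0.30). For PPIB the probe sets thus pointed the same way by more than the error. PDIA4 (ERp72), a disulfide isomerase found with BiP in chaperone complexes, gave 1364 after knock-down and 840 in control cells (0.70 ± 0.30). The other PDIA4 probe set had a ratio of 1.09 ± 0.41. Relative to the hybridisation controls PDIA4 was at 0.40 and no longer called.

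PDIA3 (ERp57), the isomerase that works with the lectins, gave 3332 after knock-down and 2412 in control cells (0.47 ± 0.30). PDIA6, an isomerase that also acts on IRE1, gave 5972 after knock-down and 4494 in control cells (0.41 ± 0.26), while its other 3 probe sets lay between -0.06 and 0.26. ERO1A, the oxidase that recharges the isomerases, gave 588 after knock-down and 565 in control cells (0.06 ± 0.36). These genes stayed within 1.5-fold. P4HB, the founding disulfide isomerase (PDI) and a subunit of prolyl 4-hydroxylase, gave 3898 after knock-down and 4628 in control cells (-0.25 ± 0.26), and its other probe set gave 0.25. PDIA5 had no probe set with this symbol alone.

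Genes for ER-associated degradation were on the other side. SEL1L, the membrane scaffold of the HRD1 ubiquitin ligase, gave 2743 after knock-down and 7516 in control cells. Its level was thus 36.5% of control, a 2.74-fold difference with a log2 ratio of -1.45 ± 0.26, the 148th lowest among all measured genes. The next probe sets of SEL1L gave 851 after knock-down and 2422 in control cells (-1.51), and 575 after knock-down and 1579 in control cells (-1.46). A dim probe set, with 120 after knock-down and 160 in control cells, gave -0.41 ± 0.73. The 3 probe sets over the signal minimum thus lay between -1.51 and -1.45, closer to each other than the error.

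DERL2, a derlin of the channel through which misfolded proteins leave, gave 928 after knock-down and 2056 in control cells, a log2 ratio of -1.15 ± 0.30. DERL1, a second derlin, gave 1467 after knock-down and 2180 in control cells. Its ratio of -0.57 ± 0.30 lay just inside 1.5-fold, and the other DERL1 probe set, with 351 after knock-down and 814 in control cells, gave -1.21 ± 0.36. With the mean of its probe sets DERL1 was at -0.89. Both derlins therefore lay below 0 by more than the error.

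HERPUD1, a stress-induced membrane protein that recruits the HRD1 ligase, gave 4329 after knock-down and 6029 in control cells (-0.48 ± 0.26). After the lowess fit and after quantile normalization HERPUD1 was at -0.67, which passes 1.5-fold. EDEM1, which trims mannose from glycoproteins that fail to fold, gave 617 after knock-down and 779 in control cells (-0.34 ± 0.36). OS9, the lectin that reads the trimmed glycan, was the exception among the degradation genes, with 3778 after knock-down and 3194 in control cells (0.24 ± 0.26) and a ratio of 0.18 from its other probe set.

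The sensors were covered in part. XBP1, the transcription factor whose RNA is spliced by IRE1, gave 1637 after knock-down and 2295 in control cells (-0.49 ± 0.30). The signal counts both splice forms and says nothing about splicing. ATF6 gave 222 after knock-down and 433 in control cells (-0.96 ± 0.41), and its dim second probe set gave -0.46. ERN1, which encodes IRE1, was below the signal minimum, with 195 after knock-down and 98.0 in control cells, where the error is 0.73. Both measured factors, XBP1 and ATF6, thus lay below 0 by more than the error.

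Translocation genes had a median of 0.09 over 12 measured genes (-0.09 after the lowess fit) and spread widely. The translocon-associated protein (TRAP) complex, which sits beside the SEC61 channel and helps some signal peptides to engage, had 3 of its 4 subunits above 0. SSR3, the gamma subunit, gave 513 after knock-down and 257 in control cells, a 1.0 log2 ratio with an SD of 0.41. SSR4, the delta subunit, gave 6228 after knock-down and 3292 in control cells (0.92 ± 0.26). SSR2, the beta subunit, gave 2689 after knock-down and 1890 in control cells (0.51 ± 0.30). SSR1, the alpha subunit, disagreed within itself, with 2637 after knock-down and 3158 in control cells (-0.26 ± 0.30) for the probe set used and ratios of 0.22, 0.27 and 0.50 for the others. With the mean over probe sets SSR1 was at 0.18, and no direction can be given for it.

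The accessory translocation factors lay below 0. SEC62, a membrane protein that admits proteins after their synthesis, gave 739 after knock-down and 1252 in control cells (-0.76 ± 0.36). Its second probe set gave -0.22, and with the mean of both SEC62 was at -0.49 and no longer called. TRAM1, which aids the insertion of nascent chains, gave 2099 after knock-down and 3414 in control cells (-0.70 ± 0.30), and 1829 after knock-down and 3627 in control cells with a second probe set (-0.99 ± 0.30). SEC63, the partner of SEC62 that brings BiP to the channel, gave 1242 after knock-down and 1786 in control cells (-0.52 ± 0.30), with ratios of -0.18 and -0.89 from its other probe sets. All 7 probe sets of these 3 genes over the signal minimum were below 0. The SEC63 probe set at -0.89 passed the minimum only through the control array, with 172 after knock-down and 319 in control cells.

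The channel itself differed by less than the error. SEC61A1, which forms the pore, gave 1081 after knock-down and 1032 in control cells (0.07 ± 0.30). SEC61B, a small subunit, gave 2140 after knock-down and 2374 in control cells (-0.15 ± 0.30), and SEC61G had no probe set with this symbol alone. For the signal peptidase complex, which cuts off the signal peptide, SPCS1 gave 3859 after knock-down and 3578 in control cells (0.11 ± 0.26). SPCS2 gave 3394 after knock-down and 2798 in control cells (0.28 ± 0.26), against -0.27 from its second probe set. SERP1 (RAMP4), a small protein of the translocon, gave 10784 after knock-down and 9552 in control cells (0.18 ± 0.26), while its other probe sets gave -0.43 and -0.34. For SPCS2 and SERP1 the probe sets did not settle a direction.

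The oligosaccharyltransferase, which moves the finished glycan onto the protein, had a median of 0.24 over its 5 measured genes. RPN2 (ribophorin II) gave 8378 after knock-down and 5352 in control cells (0.65 ± 0.26), with 0.59 and 0.39 from its other probe sets. RPN2 was at 0.39 after the lowess fit, 0.40 after quantile normalization and 0.35 relative to the hybridisation controls, so that its call depended on the scaling. DDOST (OST48) gave 5445 after knock-down and 3686 in control cells (0.56 ± 0.26), and RPN1 (ribophorin I) gave 972 after knock-down and 823 in control cells (0.24 ± 0.36). STT3A, the catalytic subunit that works at the translocon, gave 1063 after knock-down and 1083 in control cells (-0.03 ± 0.30). DAD1, a small subunit whose loss causes cell death, gave 3366 after knock-down and 4511 in control cells (-0.42 ± 0.26). The subunits of this complex thus lay on both sides of 0.

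Retrieval and cargo receptors stayed near 0. KDELR1, a receptor that returns chaperones with a KDEL signal from the Golgi, gave 679 after knock-down and 638 in control cells (0.09 ± 0.36). LMAN1, the cargo receptor ERGIC-53, gave 411 after knock-down and 447 in control cells (-0.12 ± 0.41). KDELR3 was below the signal minimum, with 104 after knock-down and 166 in control cells, and KDELR2 had no probe set with this symbol alone.

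Several probe sets over the signal minimum were available for 19 of the ER genes. In 12 of them all probe sets gave the same direction, and in 7 they did not (HSP90B1, CANX, P4HB, PDIA6, SERP1, SPCS2 and SSR1). Of the called genes, PPIB, PDIA4, RPN2, SEL1L, SEC62 and TRAM1 had further probe sets with the same direction, and HSP90B1 had not. MANF, SSR3, SSR4 and DERL2 rested on 1 probe set each, ATF6 and DNAJB9 on 1 over the minimum.

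**Figure D3:**
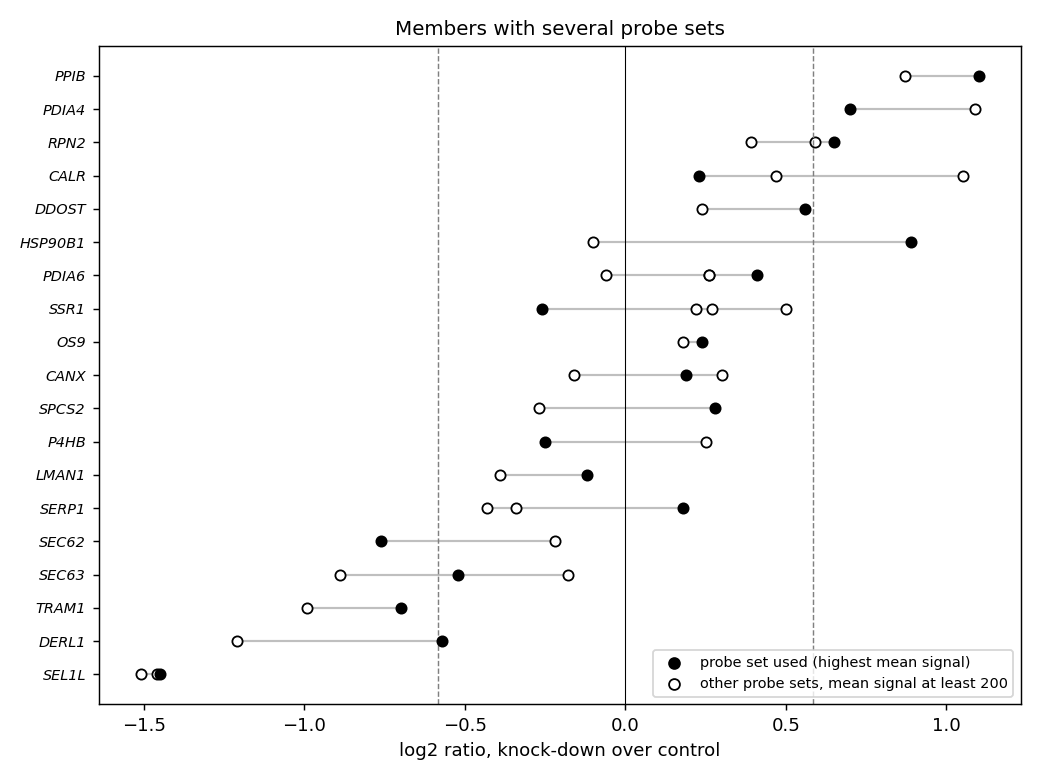
Log2 ratio of knock-down over control for every probe set over the signal minimum in the 19 ER genes that have several, with the probe set used filled and the others open. The 3 probe sets of SEL1L lie together near -1.5, both of PPIB lie above 0.8, and those of HSP90B1, SSR1 and SERP1 lie on different sides of 0.

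Other genes of the same pathways did not share one pattern. Of 30 further folding genes that were measured, 2 (6.67%) were called higher and 9 (30.0%) lower, beside 15.6% and 19.0% of all measured genes. Their median was -0.46, against 0.33 for the folding genes among the 49. Of the lower genes, ERO1B (-0.72 ± 0.41) passed the signal minimum only through the control array, with 173 after knock-down and 286 in control cells. CRELD2, a secreted protein induced by ER stress, gave 518 after knock-down and 1769 in control cells (-1.77 ± 0.30). SDF4, a calcium-binding protein of the Golgi, was at -1.15 and P4HA2, a partner of P4HB in prolyl 4-hydroxylase, at -1.05. FKBP2 gave 765 after knock-down and 289 in control cells (1.41 ± 0.36), and FKBP11 gave 3141 after knock-down and 1268 in control cells (1.31 ± 0.30). Both are proline isomerases, as are PPIC, with 746 after knock-down and 930 in control cells (-0.32 ± 0.36), and FKBP10, with 248 after knock-down and 238 in control cells (0.06 ± 0.41), so that the isomerases on the list did not go one way. PPIC and FKBP10 were added after their values were seen. CALU, a calcium-binding protein of the ER, followed at 0.30.

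Of 23 further degradation genes, 2 (8.70%) were called higher and 5 (21.7%) lower, with a median of -0.09, and the share of lower genes was near the 19.0% of all measured genes. ERLIN2, which leads membrane receptors to degradation, gave 447 after knock-down and 929 in control cells (-1.05 ± 0.36). The membrane ubiquitin ligases RNF103 and MARCHF6 were at -0.84 and -0.74. VCP, the ATPase that pulls proteins out of the membrane, was higher, with 2503 after knock-down and 1285 in control cells (0.96 ± 0.30), followed by EDEM2 at 0.71 and the deglycosylating enzyme NGLY1 at 0.45. The low values of SEL1L and the derlins thus were not general in the pathway.

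Of 29 further translocation genes, 4 (13.8%) were called higher and 3 (10.3%) lower, with a median of 0.04. These shares lie near or below the 15.6% and 19.0% of all measured genes. KTN1 (kinectin), a membrane protein of the ER, gave 982 after knock-down and 2895 in control cells (-1.56 ± 0.30). Within the signal recognition particle, which brings ribosomes to the ER, SRP54 gave 1649 after knock-down and 3405 in control cells (-1.05 ± 0.30). SRP19 of the same particle gave 4383 after knock-down and 1886 in control cells (1.22 ± 0.26). EMC8, a subunit of an insertase for membrane proteins, was at -0.82, CAMLG, a receptor for tail-anchored proteins, at 1.34, and NACA, which shields nascent chains, at 0.70. NACA was at 0.20 after the lowess fit and 0.15 after quantile normalization, and SRP14, a further subunit of the particle, was at 0.60 as deposited and at 0.36 after either, so that 2 of the 4 higher calls were lost. GET3 of this list went the other way, from 0.53 as deposited to 0.59 and 0.60, which passes 1.5-fold.

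Assembly and trimming of the N-glycan gave 4 genes called higher (14.8%) and 5 lower (18.5%) of 27 measured, with a median of 0.04. Both shares were near those of all measured genes, 15.6% and 19.0%, and are no result about this pathway. GMPPA, which regulates the supply of GDP-mannose, gave 418 after knock-down and 107 in control cells (1.97). It passed the signal minimum through the knock-down array alone, and at signals as low as that in control cells the error is 0.73. ALG3, a mannosyltransferase, and DOLK, the dolichol kinase, followed at 0.83 and 0.70. SLC35A1, the Golgi transporter for CMP-sialic acid, was lowest at -1.15, before DPM1, a subunit of dolichol phosphate mannose synthase, at -0.80 and the glucosyltransferase ALG6 at -0.66. Among 15 measured genes that process or assist the sensors, none was called higher and 1 lower as deposited, with a median of 0.05. This 1 was MBTPS2, the site-2 protease that releases ATF6 from the membrane, with 237 after knock-down and 676 in control cells (-1.51 ± 0.41). MBTPS1, the site-1 protease that cuts ATF6 before it, was at -0.44 and CREB3L2, a relative of ATF6, at -0.39. BAX was highest with 0.58, before WFS1 at 0.56 and NFYC, a subunit of the factor that binds CCAAT, at 0.52. After the lowess fit BAX was at 0.61, WFS1 at 0.59 and NFYC at 0.59, which passes 1.5-fold. They passed it after quantile normalization too (0.64, 0.62 and 0.60), so that the absence of higher calls depended on the scaling.

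The PERK and ATF4 branch, which slows translation and activates stress genes, lay apart from the machinery. Of its 19 measured genes 15 (78.9%, beside 19.0% of all measured genes) were called lower and none higher, and the median was -0.89. TRIB3, a pseudokinase induced by ATF4, gave 972 after knock-down and 4378 in control cells (-2.17 ± 0.30). DDIT4 and PPP1R15A, which restrain mTOR and restore translation, were at -1.92 and -1.88. The least low were PHGDH at -0.21 and PSAT1 at -0.33, enzymes of serine synthesis, and the amino acid transporter SLC7A5 at -0.38. That ATF4 targets were low on these arrays was known when the list was written, so that its count is a description.

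**Figure D4:**
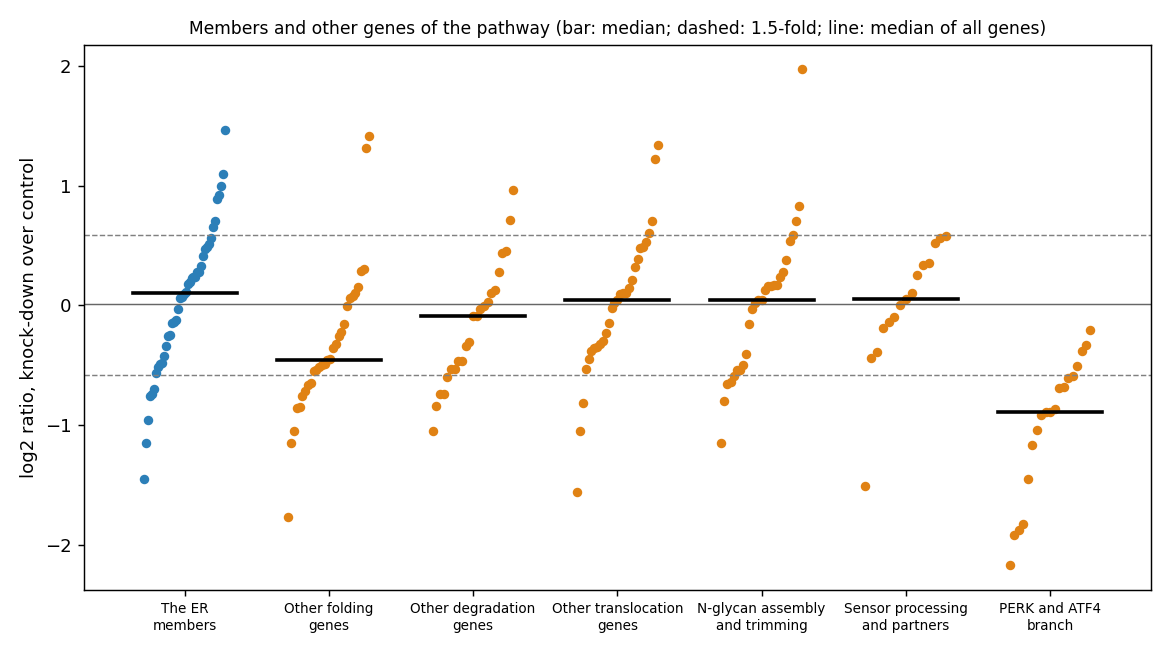
Log2 ratio of knock-down over control for the 42 measured ER genes and for the measured genes of 6 further lists, 1 point per gene in order of ratio, with medians as bars, 1.5-fold as dashed lines and the median of all measured genes as a thin line. The ER genes have a median of 0.10, the other folding genes -0.46 and the PERK and ATF4 branch -0.89, where all 19 points lie below 0.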

How the data were processed

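RNA of L-428 cells was measured on 2 arrays, 1 per condition, and samples were grouped by their labels. The deposited values are linear signal intensities that the authors computed with MAS5 in Affymetrix Expression Console and scaled to a target intensity of 500. Of 22283 probe sets, 68 were controls, and 19065 carried 1 symbol in the platform annotation of 2016 (1043 several, 2107 none). Median intensities were 164 after knock-down and 161 in control cells, and the number of arrays limits the precision. No sample column was left unmapped. Log2 ratios were computed without further normalization or pseudocount. The error was the SD of a single probe set's ratio, estimated from differences between pairs of probe sets of a gene in bands of mean signal. Named were, per role or list, the measured genes with the 3 highest and the 3 lowest ratios, genes under the minimum of 200, genes whose probe sets disagreed, and DUSP5. The other ER genes were added for completeness. The members, lists and rule were chosen with earlier results of these data known. Motifs were searched in RefSeq promoter windows. Protein retention signals were planned but not analysed here. Alternatives were quantile normalization, median centring, a lowess fit on signal (span 0.3), scaling to hybridisation controls, 32 added to each signal, no minimum, a minimum of 500, a 2-fold rule, the mean of probe sets, and leaving out the types _s_at and _x_at. The steps were tested on simulated data. Scripts ran in Python 3.11.15 (numpy 2.4.6, scipy 1.17.1, pandas 2.3.3; lowess from statsmodels 0.14.6; figures from matplotlib 3.10.9).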

Additional observations from a re-analysis of the deposited data

How the results depend on the processing

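No paired analysis was possible because there was only 1 array for each condition. The counts of ER genes called were 7 higher and 6 lower. They were 2 and 2 at 2-fold (MANF and PPIB, and SEL1L and DERL2), 5 and 12 relative to the hybridisation controls, and 5 and 3 of 22 measured genes without the types _s_at and _x_at. At 2-fold 4.38% of all 6301 measured genes were higher and 7.3% lower. Without the types _s_at and _x_at 14.5% of 3646 measured genes were higher and 21.3% lower. The 18 hybridisation controls had a median log2 ratio of 0.30, so that scaling to them moved the median of all measured genes to -0.29 and gave 388 genes higher and 2051 lower in all, against 981 and 1197 as deposited. On that scale the median of the degradation genes was -0.83 and that of the folding genes 0.03, and each ER gene kept its distance to the median of all genes, although HSPA5, CALR, OS9, RPN1, SPCS1 and others with small positive ratios were then below 0. The median of the translocation and glycosylation genes was -0.19 there and -0.03 without the types _s_at and _x_at, and that of all ER genes was -0.20 there. Without the types _s_at and _x_at the median of the folding genes was 0.67. Under the other alternatives the counts lay between 5 and 8 in either direction, and the medians of folding and degradation genes stayed on their sides of 0 under every alternative run. Leaving aside the hybridisation scaling and the signal minimum, which shift all ratios alike or cannot move one, 14 ratios of 9 single ER genes moved by more than the error. No called gene turned its direction. Without a minimum on the signal 2942 genes of 11963 were higher and 2232 lower. Low signal limited ERN1, DNAJC3 and KDELR3, and the number of arrays every value.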
